A study of Gallus gallus with 2 samples.

Results

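The training response of the male chick brain was read from a single 2-colour array, 1 of 2 arrays in the series, with RNA of trained males in the Cy3 channel and RNA of dark-reared males in the Cy5 channel. All 42034 probes that were not control spots were considered. The study sought genes with more RNA in the brain after filial imprinting. Whole brains of newly hatched Cobb chicks, 16 per condition, were typed for sex by RT-PCR, and equimolar RNA of 8 males was combined for each condition. The trained males had 1 h of training, under the treatment label imprinted, and the reference males were dark-reared. The object, the light during training and the age in hours were not given in the sources used here. Since the reference chicks had been in the dark, learning cannot be told apart from light or other experience of the session. Each side is 1 pool, the dyes were not exchanged, and no test between the pools was possible, so values below are described by size. The title of the sample names the dark-reared pool first, and ratios here are oriented by the dye labels. In a pool of whole brains, fewer cells of a type and less RNA per cell cannot be told apart.

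Filial imprinting is the early learning by which a young precocial bird forms an attachment to a conspicuous moving object. Its sensitive period in chicks depends on thyroid hormone, which deiodinase enzymes activate or inactivate inside the brain. Light and neuronal activity also switch on immediate early genes, and the avian pineal gland, on the dorsal surface of the brain, senses light directly and makes melatonin.

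The largest differences in the male pools belonged to several kinds of gene. Of 12 measured genes of the pineal gland and photoreceptors, 4 were at least 1.5-fold higher in the trained pool, RGR, pinopsin, ASMT and TULP1. Pinopsin and ASMT were well above background in the trained pool only. In the ratios used here the other members of this list stayed within 1.5-fold, and 3 of them lay below 0. Over all named genes 0.308% were higher and 0.871% lower. The list was put first because it held RGR, so its count only describes it. The metabolic kinase PDK4, the kinases NUAK2 and SIK1, the cAMP-inducible repressor ICER and the thyroid hormone-activating enzyme DIO2 were also higher. The primase subunit PRIM2, the mitochondrial assembly factor SDHAF4, the matricellular protein gene CYR61, the deacetylase HDAC11 and the hormone-inactivating DIO3 were lower.

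The scanner software called 61.5% of the probes well above background in the trained pool and 66.4% in the dark-reared pool, and 28041 probes that met this in at least 1 pool were kept. None was saturated. The Cy5 channel was brighter throughout, with a median background-subtracted intensity of 161 in the dark-reared pool against 65.3 in the trained pool over the kept probes. A probe with equal RNA in both pools therefore showed a trained intensity near 0.395 of its dark-reared intensity, the median over kept probes. Ratios below are log2 of trained over dark-reared after loess normalization, which removes this imbalance at each brightness. They had a median of -0.01 and an SD of 0.196 over the kept probes. The only error that could be measured was that of repeated spots. For 10 spike-in probes printed in many copies (294 spots), the SD of the ratio among copies had a median of 0.149 and ranged from 0.0947 to 0.192. It covers printing and scanning, not chicks, pooling or labelling.

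At least 1.5-fold higher in the trained pool were 97 probes (0.346% of those kept), and 262 were at least 1.5-fold lower (0.934%). Past 2-fold lay 18 higher and 10 lower probes. Unless stated otherwise, 1.5-fold below refers to the loess ratios. In these loess ratios lower probes were concentrated among the brighter ones. The dimmest 7011 of the kept probes held 4 higher and 0 lower ones, and the brightest 7010 held 37 and 121. The software's own processed intensities gave the reverse: 572 higher and 1120 lower among the same dimmest probes, and 36 and 21 among the brightest. In the software's own processed intensities of the same spots, 85 of the 97 and 97 of the 262 probes also passed 1.5-fold, and all of them had the same sign.

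The split between directions depended on the scaling. Plain background subtraction gave 1272 higher and 2107 lower probes. Centring the array on its median, without loess, gave 17 higher and 9685 lower. That scaling moved the median of all kept probes to -0.37 and that of named genes to -0.53, so positions under it are read relative to those medians. With 1 probe for each of the 7463 named genes, 23 genes were higher (0.308%) and 65 lower (0.871%), with a median ratio of 0.00.

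**Figure D1:**
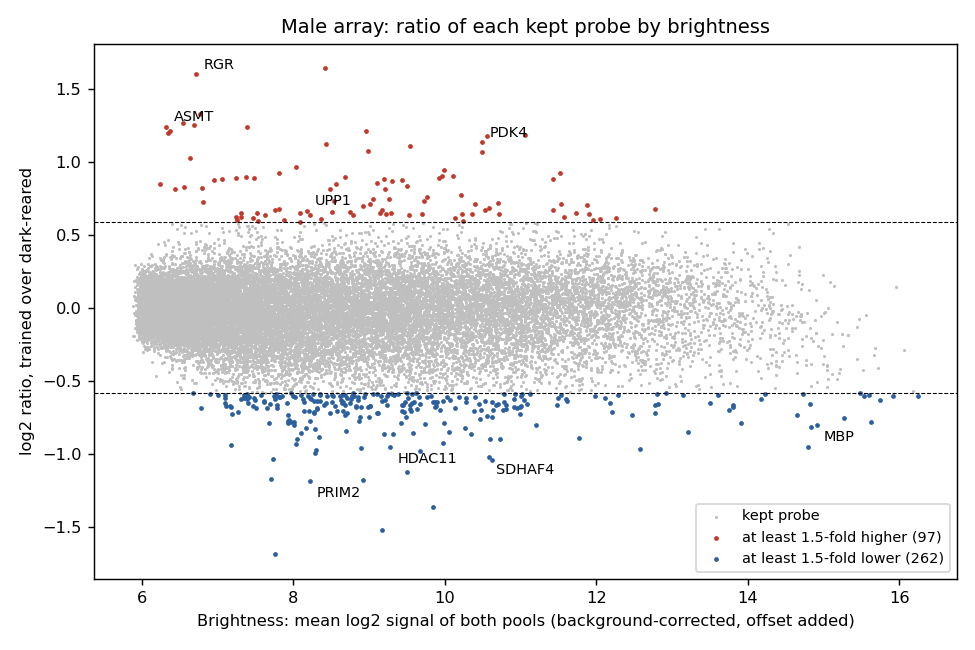
Log2 ratio of trained over dark-reared males (vertical axis) against mean log2 signal of both pools (horizontal axis) for the kept probes of the male array. The dashed lines mark 1.5-fold, past which 97 probes lay above and 262 below, the lower ones mostly to the right of the dimmest probes. In processed signals the lower ones were mostly among the dimmest probes.

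Genes of the pineal gland and photoreceptors were examined first because they held the largest named ratio. RGR encodes an opsin-like protein that isomerizes retinal in the retina of mammals and birds. Its probe read 92.0 in trained and 16.9 in dark-reared males, 3.03-fold higher in the trained pool (log2 1.60, and 3.65 in processed signals). The female ratio was -0.01, from intensities of 5.88 and 15.6. The trained male pool was thus far above the other 3 pools of the series for this gene.

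RGR was well above background in both male pools. A further 3 genes were so in the trained male pool only and at least 2-fold higher by a lower bound, which replaces their fold. Pinopsin (OPNP), the photopigment of the chick pineal gland, read 51.8 in trained and 5.60 in dark-reared males, at least 2.24-fold higher. ASMT, which makes melatonin in its last step, read 50.5 and 2.51, at least 2.19-fold higher. The probe that the array describes as purpurin, a retinol-binding protein of the chick retina and pineal gland, and that the reference table names RBP4, read 49.8 and 4.45, also at least 2.19-fold higher. None of these 3 probes was well above background in either female pool. The bound sets the dim intensity to no less than the lowest one called well above background in that channel. No named gene had a bound of 2-fold in the other direction, although 378 named probes were well above background in the dark-reared pool only and 35 in the trained pool only.

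AANAT, the enzyme before ASMT in melatonin synthesis, read 82.8 in trained and 114 in dark-reared males, a log2 ratio of 0.50 (0.90 in processed signals, and 0.03 in females). It did not reach 1.5-fold after loess but passed it in processed signals and with plain background subtraction (0.86). TULP1, needed for protein transport in photoreceptors, read 62.3 and 46.8, 1.77-fold higher (log2 0.82, and 1.56 in processed signals). Unlike RGR and AANAT, TULP1 had nearly the same ratio in females, at 0.76.

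Of the 22 pineal and photoreceptor genes on the array, 12 were measured in males. 4 were at least 1.5-fold higher and none lower, against 0.308% and 0.871% of all named genes, and 9 lay above 0 (5 in females). Their median ratio was 0.29 in males and -0.01 in females, and 6 were within the highest 5% of all kept probes. The male median is the same with OPNP and ASMT at their bounds. The 4 higher genes include these 2, which counted as measured only through the trained pool. 1 other member counted only through the dark-reared pool. The list was examined first because it held RGR, so its counts and median only describe it. The remaining members were mixed. The visual cycle genes RLBP1 (0.35) and RPE65 (0.24) and the cone transducin GNAT2 (0.21) lay above 0, the red cone opsin OPN1LW was near 0 (0.03), and GUCA1A (-0.11), PDE6B (-0.16) and CNGA3 (-0.37), all of photoreceptor signalling, lay below it. With median centring RLBP1 and GNAT2 also lay below 0.

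The summed intensity of the 12 measured genes was 1152 in trained and 1870 in dark-reared males, a quotient of 0.616 where the array median was 0.395. In females the sums were 863 and 1691, a quotient of 0.510 against 0.454. The male sums include RGR, for which the list was examined first, and OPNP and ASMT, which counted as measured only through the trained pool. The sums therefore only describe the list. Rod transducin GNAT1, the interphotoreceptor protein RBP3, the cone phosphodiesterase genes PDE6C and PDE6H, the channel CNGA1, the structural gene PRPH2, GUCA1B, the green opsin OPN1MSW, melanopsin OPN4 and the serotonin-synthesizing TPH1 were not well above background in either male pool. Whether the 2 male pools held unequal amounts of pineal tissue was not tested.

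**Figure D2:**
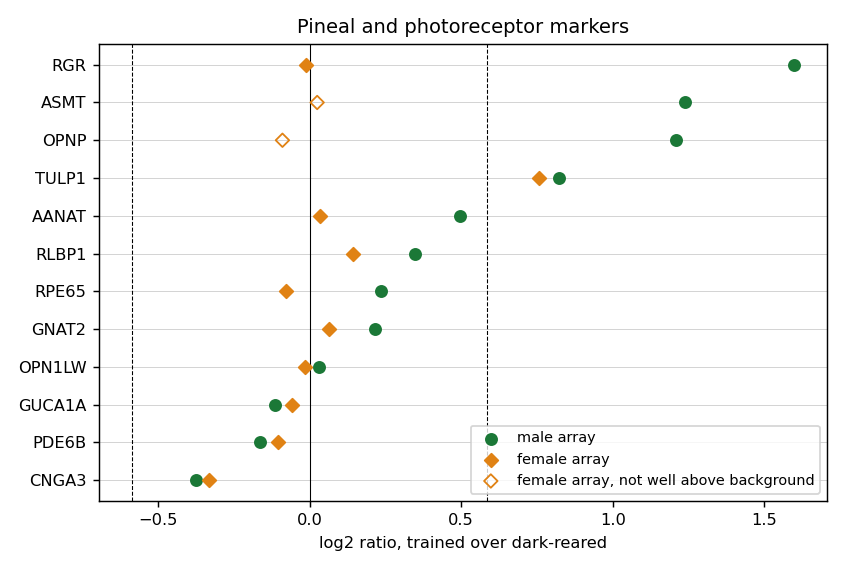
Log2 ratio of trained over dark-reared (horizontal axis) for the 12 pineal and photoreceptor markers measured in males, with the male array as circles and the female array as diamonds, open where neither female pool was well above background. Dashed lines mark 1.5-fold; RGR, ASMT and OPNP lie far right in males and near 0 in females, and the points of ASMT and OPNP in males rest on a dark-reared signal at background.

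Among genes measured in both male pools and past 1.5-fold both after loess and in the processed signals, PDK4 followed RGR. PDK4 phosphorylates pyruvate dehydrogenase and so slows the entry of pyruvate into the citric acid cycle. Its probe read 1333 in trained and 1436 in dark-reared males, 2.19-fold higher once the dye imbalance was removed (log2 1.13, and 1.34 in processed signals). The female ratio of 1.10 was almost the same. LMBR1, a membrane protein gene best known for the limb enhancer it contains, read 299 and 277 (log2 1.12), whereas its female ratio was -0.06.

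Both enzymes that set local thyroid hormone levels were past 1.5-fold, in opposite directions. DIO2, which converts thyroxine to its active form, read 815 in trained and 1016 in dark-reared males, 1.85-fold higher (log2 0.89). DIO3, which inactivates the hormone, read 71.5 and 315, 1.54-fold lower (log2 -0.63, and -0.97 in processed signals). Female ratios were 0.99 for DIO2 and -0.67 for DIO3. The other 10 measured thyroid hormone genes stayed within 1.5-fold, and the list had a median of -0.03. Over all named genes 0.308% were higher and 0.871% lower. The hormone-binding protein CRYM had 0.28, the receptor THRA 0.13 and the corepressor NCOR1 -0.32, and the processed signals put NCOR1 at 0.01.

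Genes induced by neuronal activity or cAMP went in both directions. NUAK2, a kinase of the AMPK family, read 933 in trained and 1166 in dark-reared males (log2 0.90, and 1.02 in females). SIK1, a salt-inducible kinase that restrains CREB signalling, read 482 and 582 (log2 0.88, and 1.12 in females). ICER, a short repressor product of the CREM gene, read 411 and 547 (log2 0.74, and 0.72 in females). For these 3 genes males and females thus gave ratios of similar size.

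DUSP4, a nuclear phosphatase of MAP kinases, read 93.9 and 110 (log2 0.65, and 1.09 in processed signals). CYR61, a matricellular gene also induced by serum, was the exception in direction, with 178 in trained and 918 in dark-reared males (log2 -0.96) and a female ratio of -0.18. Among 21 measured immediate early and activity-regulated genes, 4 were at least 1.5-fold higher and 1 lower, with 13 above 0 and a median of 0.11. The background was 0.308% higher and 0.871% lower, and median centring put the list at -0.62. The list was chosen with earlier results of these data known, so its counts and median only describe it.

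Classical activity markers with a named measured probe lay inside 1.5-fold after loess. EGR1 passed it in processed signals and with plain background subtraction (0.66). An unnamed probe described as a partial match to a human mitogen-induced nuclear orphan receptor had 1.21 in each sex. EGR1, a zinc finger transcription factor, read 173 and 269 (log2 0.47, and 0.93 in processed signals), and the neurotrophin BDNF read 555 and 948 (log2 0.45). Both lay below 0 with median centring, though above the median of named genes there. The synaptic ARC (-0.05, from 79.4 and 199) and the transcription factor JUN (-0.08) were near 0. The ARC probe lies on chr2:135935131-135935190 (galGal2 build). Unnamed probes close to it, on chr2:135936486-135936546 and chr2:135939157-135939216, had 0.64 and 0.88 (0.59 and 0.69 in females). They were picked after their values were seen, and whether they read ARC RNA was not tested. The probe for FOS was not well above background in either male pool. Transcription factor KLF6 (-0.50) and the G protein regulator RGS2 (-0.49) lay below 0, and CCN2 (0.49), a relative of CYR61, above it except with median centring.

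Further genes higher in trained males had diverse roles. ZSWIM5 read 848 and 1052 (log2 0.90), and its other probe gave 0.60, also past 1.5-fold. The taurine transporter SLC6A6 read 962 and 1328 (log2 0.77), against 0.14 in females. PIH1D3, which takes part in assembling ciliary dynein arms, had 0.75, and NOCT, a rhythmically expressed phosphatase known as nocturnin, had 0.71. The chemokine receptor CXCR4 read 188 and 250 (log2 0.65). UPP1, which breaks down uridine, read 203 and 270 (log2 0.66). Its female ratio was -0.65, the only named gene past 1.5-fold in opposite directions on the 2 arrays.

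With median centring, only RGR and TULP1 of these 15 highest genes stayed past 1.5-fold, and all 15 stayed above 0. Each of the 15 except ZSWIM5 had a single kept probe under its name, so no other named probe could be compared. Some unnamed probes lay close to them on the galGal2 build. Near TULP1, chrUn:65723022-65723081 had 1.02, and near ICER, chr2:12341424-12341483 had 0.88. Near LMBR1, chr2:7863464-7863523 had the opposite sign, -0.68. Female ratios were 0.83, 0.75 and -0.20. They were picked after their values were seen, and whether they read the same genes was not tested.

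The lowest ratio among genes measured in both pools was that of PRIM2, a subunit of the primase that starts DNA synthesis. It read 84.1 in trained and 579 in dark-reared males, 2.27-fold lower (log2 -1.18, and -1.16 in processed signals). The female ratio was -0.60. SDHAF4, which helps assemble succinate dehydrogenase, read 642 and 3303, 2.03-fold lower (log2 -1.02, and -0.64 in females). HDAC11, a histone deacetylase, read 245 and 1224, 1.94-fold lower (log2 -0.95, and -1.08 in females).

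PRIM2 was the only 1 of 34 measured cell cycle genes past 1.5-fold, and HDAC11 the only 1 of 17 histone deacetylase and acetyltransferase genes. None of the 32 measured respiratory chain genes was higher, and NDUFB10 (-0.60) was the only lower one, at -0.35 in processed signals. The list medians were -0.03, -0.02 and 0.04. SDHAF4 was not on these lists. Of all named genes 0.308% were higher and 0.871% lower, and 1 member past 1.5-fold does not set a list apart.

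CD248, the name that the reference table gives to a probe described on the array as lymphocyte antigen 68, read 89.9 and 464 (log2 -0.85, and -1.29 in processed signals). The probe that the table assigns to MBLAC2 read 238 and 1110 (log2 -0.86). The array describes it as a topoisomerase-binding RING finger protein and places it on chromosome W (galGal2 build). Its female intensities were lower, at 129 and 395. Its identity is therefore uncertain. ARHGAP33L2, a pseudogene in the table, had -0.90. The remaining genes in order were WRNIP1 (-0.71), an ATPase that binds the Werner helicase, the growth factor-binding FGFBP2 (-0.69), LRCH2 (-0.68), ANKEF1 (-0.67), CHIC2 (-0.66), C22orf23 (-0.65) and ZC3H11A (-0.64), a zinc finger protein of mRNA export. Females had a ratio near 0 for ANKEF1 (-0.06) and C22orf23 (0.05) and between -0.34 and -0.76 for the other 8 genes of this group.

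**Figure D3:**
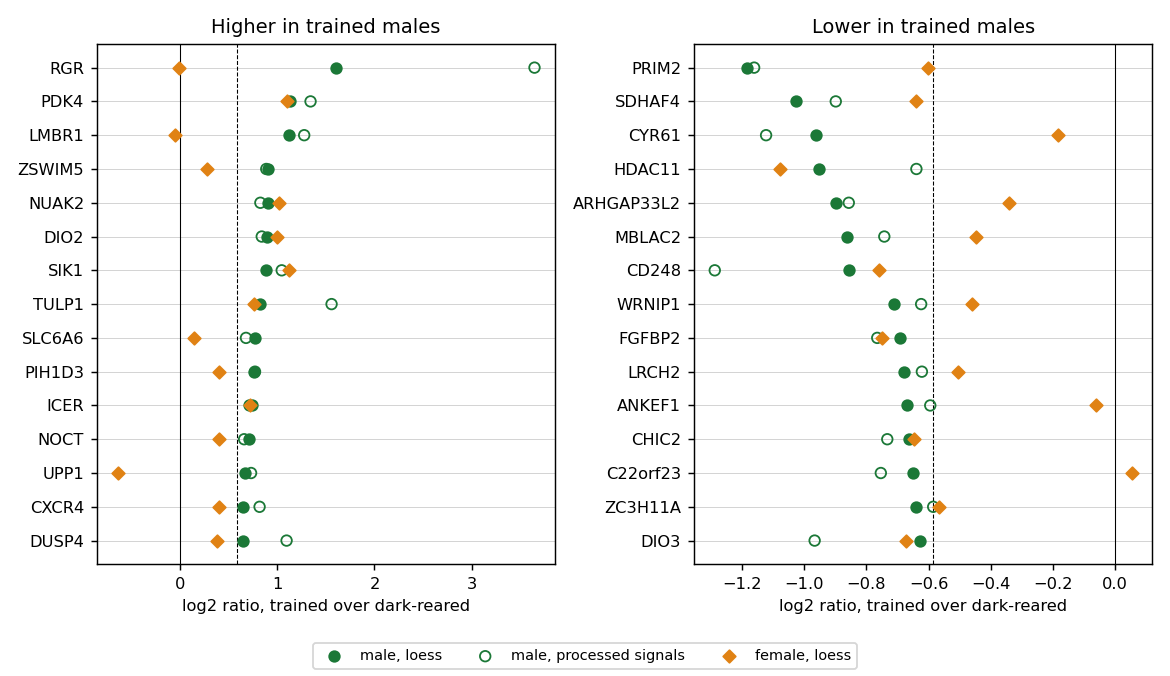
The 15 highest and 15 lowest genes of the male array that were well above background in both pools and past 1.5-fold in both kinds of signal; the horizontal axes give the log2 ratio of trained over dark-reared, with filled circles for the male loess values, open circles for the male processed signals and diamonds for the female loess values. Dashed lines mark 1.5-fold. PDK4, NUAK2, DIO2, SIK1, HDAC11 and DIO3 have similar values in both sexes, whereas RGR, LMBR1, UPP1, CYR61 and C22orf23 do not.

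On the galGal2 build used by the array design, the RGR probe lies on chr6:2452935-2452994, the OPNP probe on chr19:6621658-6621717 and the ASMT probe on chr1:122070808-122070867. The PDK4 probe lies on chr2:23211638-23211697, the UPP1 probe on chr2:79925199-79925258 and the NUAK2 probe on chr26:674335-674394. Of the lower genes, the PRIM2 probe lies on chr3:84945517-84945576, the SDHAF4 probe on chr3:80999025-80999084 and the CYR61 probe on chr8:16529235-16529294. Exons, untranslated regions and probe or promoter sequences were not analysed here.

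A further set of lower genes consisted of very abundant transcripts, and these differed between the 2 kinds of signal. MBP, the main protein gene of central myelin, read 13437 in trained and 70077 in dark-reared males (log2 -0.80), but -0.41 in processed signals and -0.43 in females. BASP1, a membrane protein of growth cones, had -0.76 and -0.37 in processed signals. 4 of 33 measured cytosolic ribosomal protein genes were at least 1.5-fold lower and none higher, against 0.871% and 0.308% of named genes. Of the brightest 7010 kept probes, 1.73% were lower. In the ribosomal list 9 genes lay above 0 and the median was -0.09. The 4 lower ones were RPL32 (-0.73), RPL14 (-0.67), RPS2 (-0.66) and RPS23 (-0.63). In processed signals all 4 were inside 1.5-fold, at -0.24, -0.26, -0.43 and -0.47. These genes thus kept their sign but not their size.

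CLK4, a kinase of splicing factors, was lower with both of its probes (-0.90 and -0.60) and had -0.52 and -0.55 in processed signals. It was the only 1 of 30 splicing genes past 1.5-fold, where 0.871% of all named genes were lower. Growth cone and microtubule genes had 1 of 20 lower, BASP1, and none higher. TUBB2B (-0.57) and STMN1 (-0.55) were inside the threshold and had -0.19 and -0.36 in processed signals.

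Stress genes had a list median above that of all genes, with few members past 1.5-fold. Of 16 glucocorticoid and stress genes only PDK4 passed, 10 lay above 0, and the list median was 0.17 in males and 0.05 in females. Of all named genes 0.308% were higher and 0.871% lower. The glucocorticoid receptor chaperone FKBP5 (0.55), the releasing hormone CRH (0.54) and the metallothionein MT4 (0.54) stood below the threshold, and all 3 lay below 0 with median centring. The phosphatase DUSP1 (-0.41) and CRHBP (-0.40), which binds CRH, had negative ratios. Of 28 glycolysis and hypoxia genes PDK4 was higher and adrenomedullin (ADM, -0.71) lower, and ADM was just inside 1.5-fold in processed signals (-0.58). Of 17 circadian clock genes, a list that holds ASMT and AANAT, only ASMT passed, and the median was 0.00.

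Synaptic and peptide genes stayed within 1.5-fold. None of 22 neuropeptide and granule genes passed, with CRH highest, cholecystokinin (CCK) at 0.46 and neurotensin (NTS) lowest at -0.52. NTS was at 0.00 in processed signals. None of 41 neurotrophin and growth factor genes passed, and PDGFB, a platelet-derived growth factor chain, was highest at 0.54 (below 0 with median centring). Likewise none passed among 18 glutamate receptor and postsynaptic genes, 14 GABA and glycine genes, 17 synaptic vesicle genes and 20 monoamine and acetylcholine genes. Their medians lay between -0.08 and 0.10. The AMPA receptor subunit GRIA4 (-0.55) was the lowest member of the glutamate list, but only -0.15 in processed signals.

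None of 35 heat shock and unfolded protein genes and none of 19 sterol and fatty acid genes passed. The disulfide isomerase PDIA3 (0.52) and the citrate lyase ACLY (0.46) were their highest members, and PDIA3 lay below 0 with median centring. In processed signals ACLY was past 1.5-fold (0.74). Of 27 interferon and inflammation genes only CXCR4 passed, where 0.308% of all named genes were higher and 0.871% lower. IRF2 (-0.55) was the lowest of them.

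Markers of brain cell types were read to see which cells the RNA came from. All 16 neuron markers on the array were measured, with none past 1.5-fold and a median of 0.09. Of 12 astrocyte and radial glia markers 2 lay above 0, the median was -0.15, and FABP7, a fatty acid-binding protein of radial glia, was 1.52-fold lower (log2 -0.60). In processed signals FABP7 was inside 1.5-fold (-0.43) and the list median was -0.04. Females had a list median of 0.03 and a FABP7 ratio of 0.15. Of 9 oligodendrocyte markers MBP alone passed, ASPA had -0.58 (-0.23 in processed signals), and the median was 0.03 in males and 0.32 in females. Over all named genes 0.308% were higher and 0.871% lower in males.

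Of 21 endothelial and mural markers 3 were lower and none higher, against 0.871% and 0.308% of named genes: CD248, VWF (-0.71) and SOX18 (-0.67). The other VWF probes gave 0.02 and -0.06, and SOX18 had -0.48 in processed signals, so of these 3 only CD248 was past 1.5-fold in both kinds of signal. Their median was -0.03. None of 12 microglia, 9 blood cell, 10 choroid plexus and ependyma, 4 pituitary and 19 brain region markers passed. The globin HBBA had 0.54, below 0 with median centring, and the midbrain and hindbrain factor GATA3 had -0.51. In processed signals GATA3 was past 1.5-fold (-0.87), as was the choroid plexus marker KL (-0.87, and -0.36 after loess). The pituitary hormone genes PRL, GH, TSHB, FSHB and CGA and the choroid plexus gene TTR were not well above background in either male pool. The part of these markers in the other ratios was not tested.

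**Figure D4:**
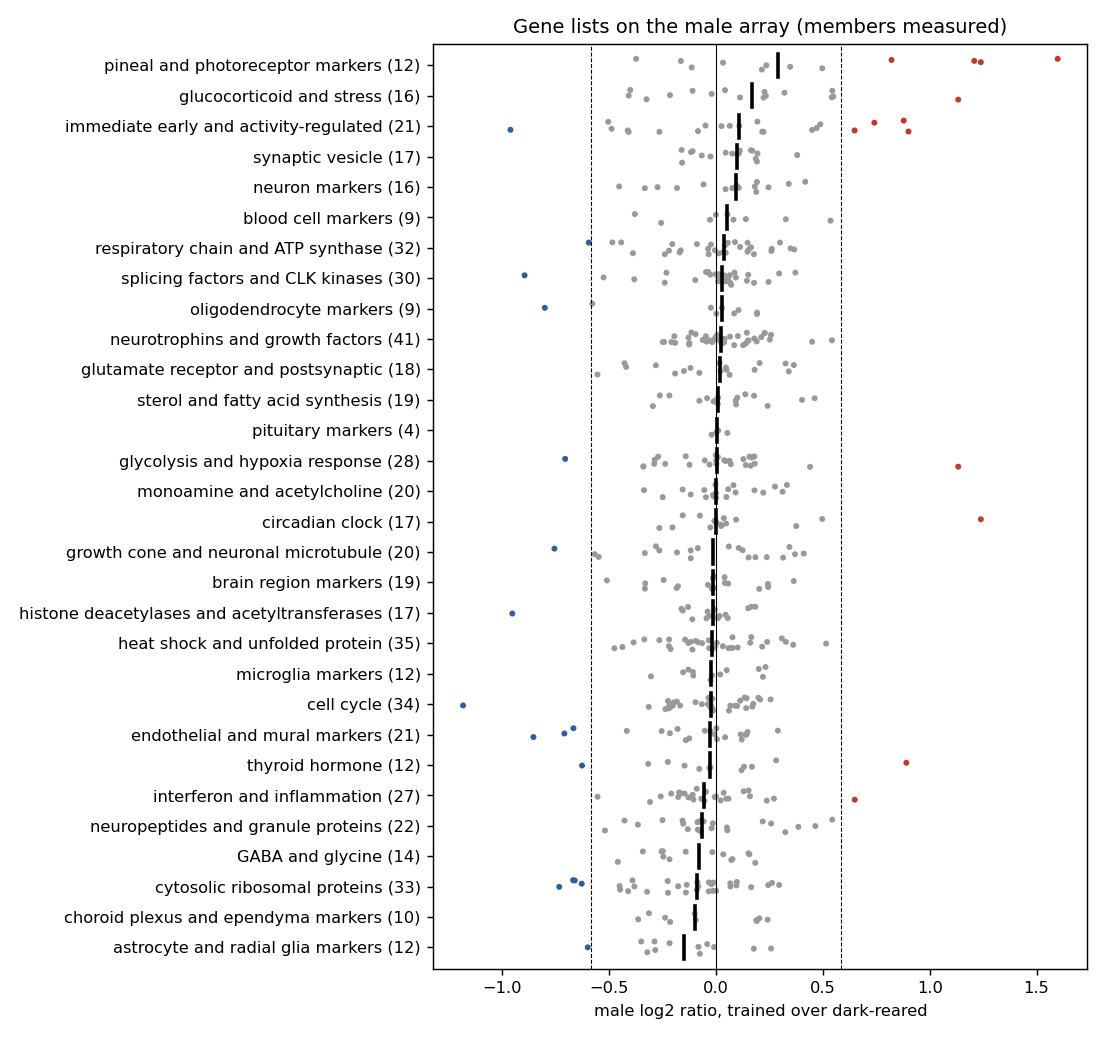
Male log2 ratios of trained over dark-reared (horizontal axis) of the measured members of 30 gene lists, 1 point a gene, with the number measured after each name and a black bar at the list median. Dashed lines mark 1.5-fold, with red points above and blue points below. Pineal and photoreceptor markers have the highest median of these loess values, 0.29, and astrocyte and radial glia markers the lowest, -0.15; in processed signals the astrocyte median is -0.04 and the lowest is that of the 4 pituitary markers, -0.20.

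The female array, with other chicks but the same dye layout on the same slide, was set beside the male values without a test. Of the 97 probes higher in males 93 were measured in females, where 72 had the same sign, 32 were also past 1.5-fold and 2 were past it in the other direction. Their median was 0.72 in males and 0.38 in females. Of the 262 lower probes 241 had the same sign in females, 82 were past 1.5-fold and 4 were past it in the other direction, with medians of -0.66 and -0.48. In the processed signals of females 64 of the 93 and 223 of the 262 had the same sign, and 30 and 28 passed 1.5-fold. Over 27372 probes measured on both arrays 88 were at least 1.5-fold higher in females and 176 lower. Of the same 27372 probes 71.9% had the same sign, and the ratios correlated at r = 0.67 across probes (0.37 in processed signals). Probes are not independent replicates, and an effect of the dye on a probe is shared by both arrays, so this correlation is a description only.

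**Figure D5:**
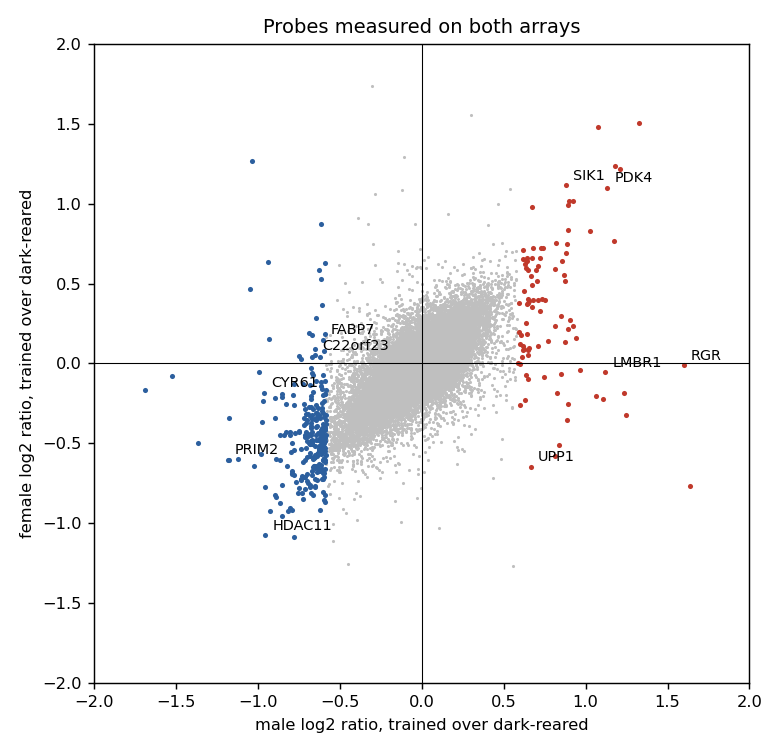
Log2 ratio of trained over dark-reared in males (horizontal axis) and females (vertical axis) for the 27372 probes measured on both arrays, with probes at least 1.5-fold higher in males in red and at least 1.5-fold lower in blue. PDK4 and SIK1 are high on both axes and HDAC11 low on both, RGR and LMBR1 lie near 0 in females, and UPP1 lies below 0 in females.

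Other probes with the same gene name rarely allowed a comparison. Of 90 named probes past 1.5-fold, 9 belonged to 7 genes with another kept probe. Counted from each of the 9, there were 10 other probes, so the pairs of CLK4 and ZSWIM5 count from both sides. Of the 10, 7 had the same sign, and 4, those pairs, were also past 1.5-fold. The same-sign probes of DDX51 (-0.003), ETAA1 (-0.08) and VWF (-0.06) were near 0, and another VWF probe had 0.02. PEBP1 had -0.78 with one probe and 0.20 with the other, and CNTNAP5 had -0.67 and 0.08.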

How the data were processed

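Per the file headers, the deposited scanner tables hold mean spot and median background intensity for each probe, and processed intensity that was detrended and dye-normalized by linear and LOWESS steps, with surrogates for 26.0% of male probes. The deposited log10 ratio (red over green) and its p-value are the scanner software's own, per the file headers, and were not used for the ratios here. The deposited series table holds log2 ratios of green over red processed intensity, which matched the scanner's up to rounding for all 42034 male probes. Agilent Feature Extraction is version 8.5.1.1 in the submitters' processing notes and 9.5.3.1 in the file headers.

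Male intensities were corrected with normexp (offset 50) and loess-normalized, control spots having weight 0, with limma 3.58.1 (R 4.3.3). The 12 probes with outlier flags were left out. The array number limits precision, and no test was run. Alternatives changed the offset (16), subtraction, processed signals, median centring, the filter, the fold and the probe per gene. In lists the brightest kept probe stood for a gene.

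Names came from a RefSeq table (GRCg7b), for 5193 probes by accession, for 3450 by gene number and for 888 by the array's symbol, and another 206 carry the symbol printed on the array. Of the rest, 32089 had no name and 208 a placeholder.

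Named are the 15 highest and 15 lowest genes past 1.5-fold in both kinds of signal and well above background in both pools. The rule adds the 2 largest ratios of each list with up to 4 more past 1.5-fold, up to 4 genes in each direction seen in 1 pool only, and up to 4 with opposite signs in the sexes. It also adds DIO2, DIO3, FOS, EGR1, ARC, JUN, BDNF, CRH, SIK1 and HDAC11. Members and the 30 lists were chosen with earlier results of these data known, so list counts and medians only describe the lists. Named after their values were seen were RLBP1, RPE65, GNAT2, OPN1LW, GUCA1A, PDE6B, CNGA3, CRYM, THRA, NCOR1, KLF6, RGS2, CCN2, MT4, DUSP1, CRHBP, CCK, STMN1, PEBP1, CNTNAP5 and genes at background. A planned promoter motif search was not analysed here. The result of 1 gene that the rule names is not reported here.

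The steps were tested on simulated data with known changes, whose fitted ratios came out smaller than those put in. Of 200 probes changed 1.5-fold, 26 passed 1.5-fold, and of 200 changed 2-fold, 112 did. A list with none past 1.5-fold can therefore still hold changed genes.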

Additional observations from a re-analysis of the deposited data

Results flagged for a closer look

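UPP1 stood out because its ratio was past 1.5-fold upwards in males (log2 0.66) and downwards in females (-0.65). The probe read 203 in trained and 270 in dark-reared males, and 122 in trained and 443 in dark-reared females. With 1 array a sex the difference between the sexes was not tested.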

How the results depend on the processing

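Counts past 1.5-fold changed with the values used: 97 higher and 262 lower probes became 223 and 430 with a normexp offset of 16, 1272 and 2107 with plain subtraction, 899 and 1556 in processed signals, 17 and 9685 with median centring, and 18 and 10 at 2-fold. Shared with the 97 and 262 were 97 and 257 at offset 16, 97 and 254 with subtraction, 85 and 97 in processed signals, and 16 and 262 with median centring. The cause was not tested, apart from the 2-fold count, which is smaller by construction. Requiring both pools well above background gave 93 and 262, and no filter 97 and 262. Of 117 other values, of genes and list medians, 45 were genes past 1.5-fold, and 0 of these changed sign under these settings. This count is partly fixed by selection. The highest and lowest genes named here had to pass 1.5-fold in processed signals too, so their sign could not change there. Median centring moved named genes downwards as a whole, so the lower genes could hardly change sign under it. Of the other 72 of the 117 values, 44 changed sign under at least 1 setting, 32 with median centring and 12 in processed signals. Of the 117, 54 moved by more than the spot spread in processed signals and 111 with median centring. No paired analysis was possible because each condition had 1 pool per sex on a single array. Dim probes limit the range of ratios, since the offset pulls them towards 0.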

Other observations

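Some probes without a gene name had large ratios. Of those well above background in both male pools and past 1.5-fold in both kinds of signal, 65 were higher and 79 lower in trained males, and 49 and 66 of them had the same sign in females. Probe A_87_P003099, which the array describes as a partial match to a human mitogen-induced nuclear orphan receptor, read 460 in trained and 422 in dark-reared males, with a log2 ratio of 1.21 in each sex. Probe A_87_P025185, the highest of the male array, had 1.64 in males and -0.77 in females. The lowest, A_87_P000190, had -1.69 in males and -0.17 in females, and A_87_P007385 had -1.52 and -0.08. Probe A_87_P007286, which lies near A_87_P003099 on chr2, had 1.08 in males and 1.48 in females. These probes were chosen after their values were seen.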
